A study of Helianthus annuus with 8 samples.

Results

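The 74 sunflower control probes were the non-control probes of a custom sunflower microarray that occupied 10 spots on every array. They were found by counting, for each probe name not marked as a control by the scanner software, the spots that carried it: 74 of 40243 names occurred 10 times and the other 40169 once, so that these probes took 740 of the 40909 non-control spots of an array. Each carried the GenBank accession of its own expressed sequence tag, a short read of a transcript. None of the 74 accessions matched a named gene in the RefSeq table used, so the probes are called by their array names (CUST_1 to CUST_74) and no gene function is given for them. The study's methods say that they were designed from sunflower genes found in earlier work to differ in expression, which its results describe as sensitive to abiotic stress. Their probe sequences were not analysed here.

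Leaves of the field-grown sunflower hybrid VDH 481 were profiled in 4 groups, with 1 RNA sample per array and a single dye. Water deficit leaves at 45 days (2 arrays) came from plants whose soil was covered 10 days before flowering, which lowered soil volumetric humidity by about 40%, and control leaves at 45 days (2 arrays) came from untreated plants. The head excision leaf sample at 50 days (1 array) came from plants whose flower was cut off 4 days before flowering, and control leaves at 50 days (3 arrays) came from untreated plants. These ages and intervals are those of the sample labels, and the methods of the study give another leaf age and another day for the soil cover. All groups were 1 hybrid in 1 field experiment. The methods describe a field trial in randomized blocks, with pooled plants of a plot as a replicate, but the labels do not tie an array to a plot or block, so the p-values measure the spread between these samples, whatever its source. The 4 arrays at 45 days shared 1 slide and the 4 at 50 days another, so each treatment was compared with its control within a slide, whereas age and slide cannot be told apart.

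Probes spotted many times serve a purpose of their own on an oligonucleotide array. The spots of a probe on 1 array all sample the same labelled RNA, so their spread shows the error of printing, hybridization and scanning, whereas the spread between arrays of a group also holds the differences between plants, RNA extracts and labelling. Drought limits photosynthesis and can bring leaf senescence forward, and removal of the head takes away the sink to which leaves export sugars and nitrogen. Brightness depends on the probe as well as on the amount of its transcript, so differences are taken between samples for 1 probe, and an order of probes by level is an order of signal, not of transcript amounts. In pooled leaf tissue, fewer cells of a type and less RNA per cell cannot be told apart.

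The median processed signal of non-control spots ran from 89.1 to 144.9 over the 8 arrays. On them 69.8% to 73.4% of non-control spots were well above background and 0 spots were saturated, and of the 740 member spots 640 to 669 were well above background. Both ends of these ranges lay at 45 days. The water deficit arrays had medians of 143.7 and 144.9, with 669 and 665 member spots well above background. Their controls had medians of 108.0 and 89.1, with 647 and 640 such spots. Medians of the arrays at 50 days lay between, at 122.3 to 136.5. The part of this difference in the results was not tested beyond the alternative scalings. The second control array at 45 days stood apart in the spiked-in control RNAs. On that array they deviated from their mean over the remaining arrays by a median of 0.385 on the log2 scale. The same measure was 0.220 on the first control array at 45 days and 0.0841 to 0.159 on the remaining arrays. The part of that second control array in the results was not tested beyond leaving it out. All levels below are log2 of the background-corrected, quantile-normalized signal, averaged over the 10 spots, and differences are log2 differences of these means.

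Most members were measured well. At all 10 spots on all 8 arrays, 62 of the 74 members were well above background, and 64 had over 5 of 10 spots above background on every array, the rule used here to call a member detected on an array. Never detected by that rule were 6 members: CUST_48 and CUST_58 had 0 of 80 spots above background, CUST_17 and CUST_44 had 1, and CUST_24 and CUST_49 had 2. The 4 members detected on some arrays only were CUST_73, CUST_22, CUST_20 and CUST_64, with 22, 17, 52 and 51 of 80 spots above background.

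The mean level over the 8 arrays ran from 0.36 for CUST_48 to 18.73 for CUST_54, with a median of 12.18, and 27 members had a mean over 14. The 5 brightest were CUST_54 at 18.73, CUST_45 at 18.43, CUST_28 at 18.18, CUST_32 at 17.51 and CUST_39 at 17.49. The 5 dimmest were CUST_48 at 0.36, CUST_58 at 0.54, CUST_44 at 0.58, CUST_17 at 1.03 and CUST_49 at 1.32. All were among the 6 that were never detected, so no order of their transcripts is read from these levels. Over all 8 arrays, whatever the group, the level of a member spanned a median of 1.00, from 0.11 for CUST_54 to 6.09 for CUST_46. The span was under 0.5 for 10 members, 0.5 to 1 for 26, 1 to 2 for 27 and over 2 for 11.

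**Figure D1:**
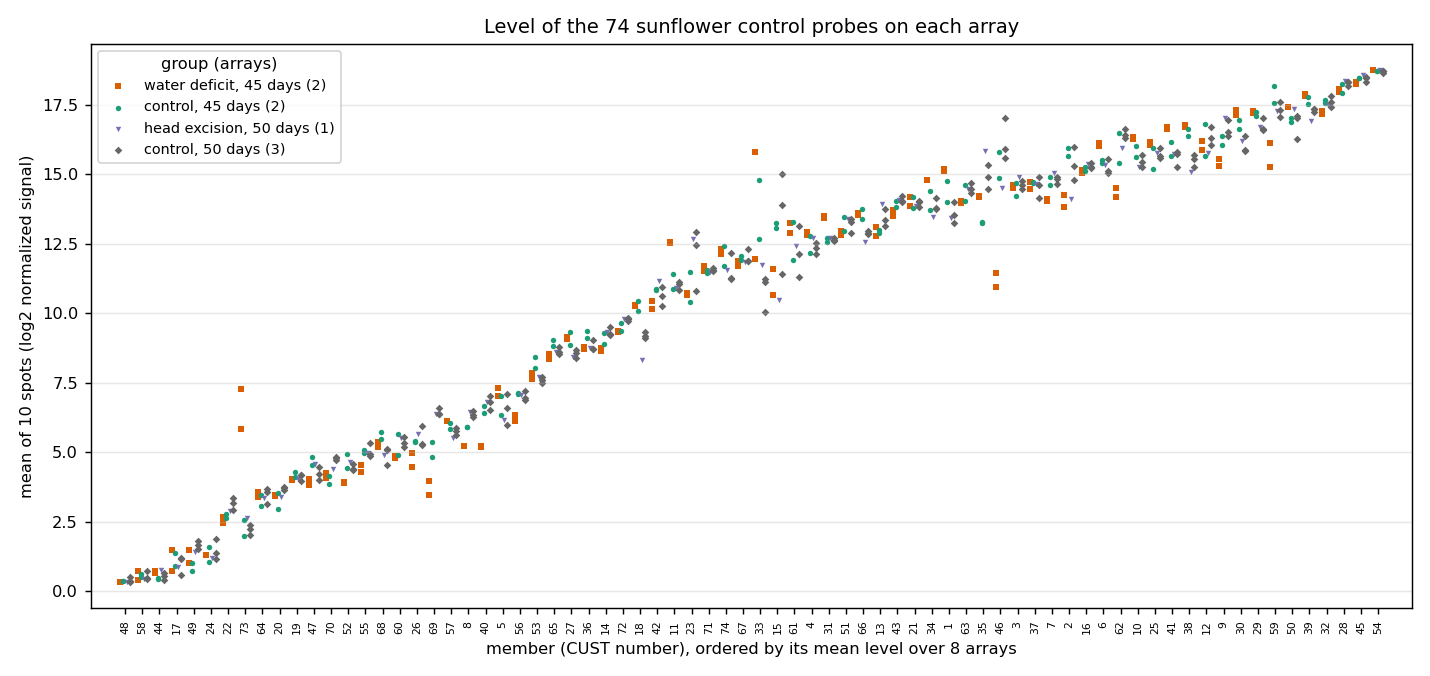
Level of each of the 74 members on each of the 8 arrays, as the mean of 10 spots in log2 normalized signal (y axis), with members ordered by their mean level (x axis). Most members form a narrow column of points, while CUST_73, CUST_46 and CUST_33 span over 5 units between arrays.

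CUST_54 had the narrowest span of all. Its level was 18.76 and 18.78 in water deficit leaves, 18.71 and 18.74 in control leaves at 45 days, 18.76 in the head excision leaf and 18.73, 18.72 and 18.67 in control leaves at 50 days. Quantile normalization gives the brightest spots of every array the same set of values. Before it, the mean processed signal of CUST_54 was 468159 and 497484 under water deficit against 401832 and 451003 in controls at 45 days, and 431735 after head excision against 406961, 436919 and 404311 in controls at 50 days.

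The 10 spots of a probe agreed closely. The standard deviation (SD) over the 10 spots of 1 array had a median of 0.0903 on the log2 scale over all members and arrays, and ranged from 0.0207 to 1.80. The array medians ran only from 0.0819 to 0.101. On the linear processed signal, the coefficient of variation (CV) over the spots had a median of 5.83%. For the 62 members above background at every spot, the median SD was 0.0791 and the median CV 5.25%, and for the 6 members that were never detected they were 0.555 and 33.7%.

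Spread depended on brightness, but only at the dim end. The median spot SD was 0.555 for the 6 members with a mean level under 2, 0.219 for the 15 at 2 to 6, 0.0764 for the 10 at 6 to 10, 0.0772 for the 16 at 10 to 14 and 0.0731 for the 27 over 14. Among members above background at every spot, the largest mean spot SD was 0.302 for CUST_52, 0.273 for CUST_68 and 0.246 for CUST_47, with mean levels of 4.39, 5.17 and 4.32. The smallest was 0.0386 for CUST_35, 0.0418 for CUST_37 and 0.0466 for CUST_41, all with mean levels over 14. CUST_48 had a mean spot SD of 0.234 and CUST_24 of 0.945. Neither was detected on any array, and their mean levels were 0.36 and 1.35. The source of the difference in spot SD between them was not tested.

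**Figure D2:**
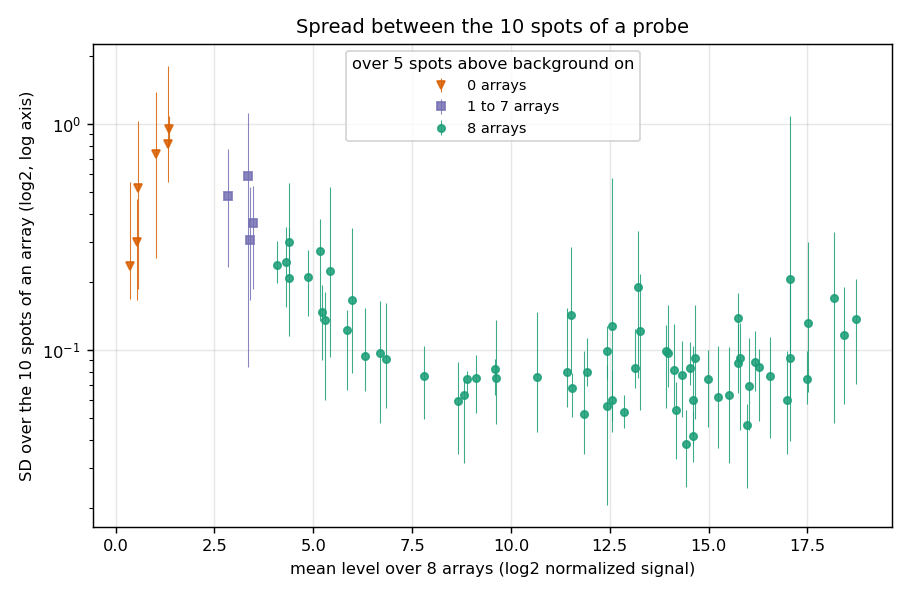
SD over the 10 spots of a member (y axis, log2 units on a log axis) against its mean level over 8 arrays (x axis, log2). Points are means over 8 arrays and bars run from the lowest to the highest array, so that the low, flat band above a level of about 6 and the steep rise below it can be seen.

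Single spots far from the rest were few. Of the 5120 spots of the 64 members detected on every array, 91.3% lay within 0.2 of the median of the other 9 spots, 59 lay over 0.5 away and 7 over 1 away, of which the scanner software had marked 5 as outliers. The farthest was spot 6 of CUST_59 on the first control array at 50 days, which read 13.99 against a median of 17.40 for the other 9. Spot 5 of CUST_61 on the same array read 12.95 against 11.14.

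Some deviations recurred at the same place on several arrays. Spot 8 of CUST_68 read 0.98 below the median of its other 9 spots on the first water deficit array, and 1.00 and 0.78 below it on the 2 control arrays at 45 days. Spot 9 of CUST_28 was low by 1.03 on the first water deficit array and by 0.79 on the third control array at 50 days. For each member, the deviations of its 10 spots were correlated between every pair of arrays. The mean correlation had a median of 0.46 over members, 0.50 for arrays of the same slide and 0.38 for arrays of different slides, and exceeded 0.5 for 32 of 74 members. Differences between fixed positions made up a median of 36.5% of the variance between spots. The 10 spots of a member were spread over a median of 445.5 of the 532 rows and 72.5 of the 85 columns of the grid, and a position effect that is the same on all arrays cancels in a comparison between them.

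Replicate arrays carried separate leaf samples, so their spread holds more than the error of the spots. The SD of a member's level between arrays of a group, pooled over the 3 groups with over 1 array, had a median of 0.212, and the error of a mean of 10 spots (spot SD over the square root of 10) had a median of 0.0309. The ratio of the 2 had a median of 6.44 over all members, but it followed brightness, with medians of 0.948 for the 6 members at a mean level under 2, 2.55 at 2 to 6, 6.86 at 6 to 10, 9.11 at 10 to 14 and 9.52 over 14. It exceeded 1 for 3 of the 6 dimmest and for 67 of the other 68 members. The spot SD used here also holds the differences between fixed positions, which cancel between arrays. Without them the spot SD had a median of 0.0703 over members. Where positions differ, the error is thus overstated and the ratio too low.

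The split of the variance also depended on detection. In the 64 members detected on every array, spots made up a median of 16.6% of the variance of a single spot within a group and arrays the rest, and with 10 spots averaged the share of spots was 1.95%. In the other 10 members these shares were 92.6% and 60.5%, with differences between fixed positions counted as spot variance throughout. The gain from averaging thus lay with the dim members. In what follows, the SD with 1 spot is a root mean square over a member's 10 spots, then a median over members. For probes spotted once it is a plain median over probes, so these values and those with 1 spot are unlike measures. At a mean level under 2, the SD between arrays was 0.198 with 10 spots and 0.535 with 1, against 0.251 for the probes of that level spotted once. At 2 to 6 it was 0.206 with 10 spots and 0.301 with 1, against 0.402 for probes spotted once. At the bright end averaging changed little: the SD was 0.254 with 10 spots and 0.267 with 1 at 10 to 14, against 0.217 for probes spotted once, and 0.250 and 0.258 over 14, against 0.233. The members with 10 spots thus varied less between arrays than probes spotted once at the 3 lower levels (0.170 against 0.235 at 6 to 10) and more at the 2 higher ones, with no test of these differences.

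**Figure D3:**
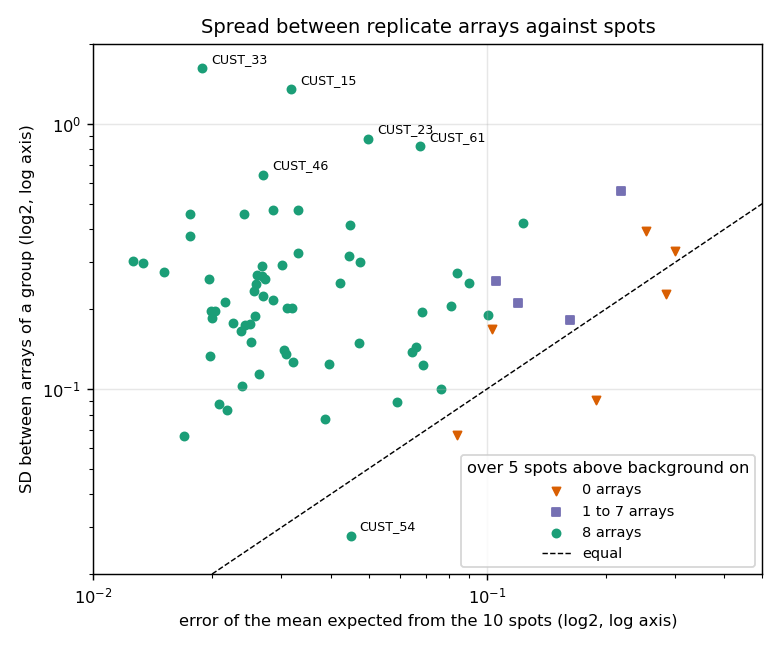
SD of a member's level between arrays of the same group (y axis) against the error of the mean expected from its 10 spots (x axis), both in log2 units on log axes, with a dashed line where the 2 are equal. All but 4 of the 74 members lie above the line, most of the dim members lie close to it, and CUST_33 and CUST_15 lie highest.

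CUST_33 varied most between replicates, and is described here because of that, chosen after its values were seen. It read 11.96 and 15.80 in the 2 water deficit samples, 12.67 and 14.79 in the 2 controls at 45 days, 11.74 after head excision and 10.04, 11.13 and 11.23 in controls at 50 days. The second water deficit array was 3.84 above the first, and each of the 10 spots alone gave a difference between 3.72 and 3.97. Its SD between arrays of a group was 1.62, which was 86.0 times the error expected from its spots. The ranges of water deficit and control leaves overlapped at 45 days, and its difference between them was 0.15 ± 1.41 (SE, limma, adjusted p = 0.992). With 1 array left out in turn this difference ran from -1.77 to 2.08, so it has no settled sign.

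CUST_15, CUST_23 and CUST_61, also chosen after their values were seen, had the next largest SDs between arrays of a group, 1.35, 0.879 and 0.821. CUST_15 read 11.41, 13.91 and 15.02 in the 3 control leaves at 50 days, so that the head excision leaf at 10.49 lay below all of them while its difference of -2.96 ± 1.35 (SE) had an unadjusted p of 0.077 in limma and an adjusted p of 0.630. CUST_23 read 12.45, 10.79 and 12.91 in the same 3 controls. On every array these members were above background at all 10 spots.

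At 45 days the question was which members responded to water deficit. In limma, with p-values adjusted by the Benjamini-Hochberg method over all 40243 non-control probes, 4 of 74 members passed an adjusted p of 0.05, which is 5.41% of them, against 1.82% of all probes tested. CUST_73 and CUST_31 were higher under water deficit (1.34% of all probes were called in that direction), and CUST_46 and CUST_40 were lower (0.482%). All 4 calls lay close to the threshold. Leaving out any single array other than the head excision array lost the calls of CUST_31, CUST_46 and CUST_40, and that of CUST_73 was kept only without the head excision array or without the first water deficit array. A fit of the 4 arrays at 45 days alone called 0 of 40243 probes, and so did a fit of all arrays with the replicate number as a block.

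CUST_73 (accession BU671910.1) was at background in the controls and well above it under water deficit. It read 5.85 and 7.27 in the water deficit leaves, where all 10 spots of both arrays were well above background, against 1.96 and 2.55 in the controls at 45 days, where 0 of 10 spots were on either array. It was not detected in the head excision leaf (2.61) or in controls at 50 days (2.02, 2.22 and 2.36), where 0 or 1 of 10 spots were above background. As the controls were not well above background, its change is a bound: the mean of the 2 water deficit arrays was at least 8.50-fold higher. The first of these arrays, which read lower, would give a smaller bound alone. The bound sets the mean of the water deficit arrays over the lowest single spot well above background on each control array. Where the probe's own signal was higher, that was used instead. The bound itself was not tested. The fitted difference, which uses the control values as read, was 4.30 ± 0.49 (SE, limma, adjusted p = 0.0347). The 10 spots taken one at a time gave fitted differences of 3.44 to 5.60, all higher under water deficit. The 2 water deficit arrays differed from each other by 1.42, and the adjusted p was 0.0207 to 0.104 with 1 array left out in turn. With an offset of 50 in the background correction the fitted difference shrank to 1.43 (adjusted p = 0.0835, and 0.00651 to 0.136 over all 14 alternatives).

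CUST_31 (BU672008.1) was bright and tight. It read 13.52 and 13.45 in water deficit leaves, against 12.71 and 12.57 in controls at 45 days. The head excision leaf at 12.70 lay among the controls at 50 days, at 12.64, 12.72 and 12.61. The groups at 45 days did not overlap, and the difference of 0.84 ± 0.11 (SE), 1.79-fold, was 0.75 to 0.95 by single spots (adjusted p = 0.0399, and 0.0400 to 0.133 with 1 array left out).

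CUST_46 (BU671931.1) had the largest fall among the members. It read 11.46 and 10.93 in water deficit leaves, against 15.80 and 14.89 in controls at 45 days, a difference of -4.15 ± 0.56 (SE), or 17.7-fold lower (adjusted p = 0.0433, and 0.0432 to 0.171 with 1 array left out). It read 14.51 in the head excision leaf, against 15.61, 15.93 and 17.02 in controls at 50 days, which lay above it. That second difference, -1.68 ± 0.65 (SE), did not pass after adjustment (limma, unadjusted p = 0.046, adjusted p = 0.562). The water deficit arrays stood well below all other arrays, and all 10 spots gave a lower value in each comparison.

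CUST_40 (BU671940.1) read 5.21 and 5.17 in water deficit leaves, against 6.65 and 6.40 in controls at 45 days, with every spot above background. The groups did not overlap and the difference was -1.33 ± 0.20 (SE), or 2.52-fold lower (adjusted p = 0.0490, and 0.0487 to 0.180 with 1 array left out). With an offset of 50 in the background correction it shrank to -0.72 (adjusted p = 0.0634), and it was -0.48 when the offset of 50 was used on the median spot signal (adjusted p = 0.0559, and 0.0349 to 0.182 over all 14 alternatives). After head excision it read 6.81, inside the range of its controls at 6.80, 6.50 and 7.01.

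**Figure D4:**
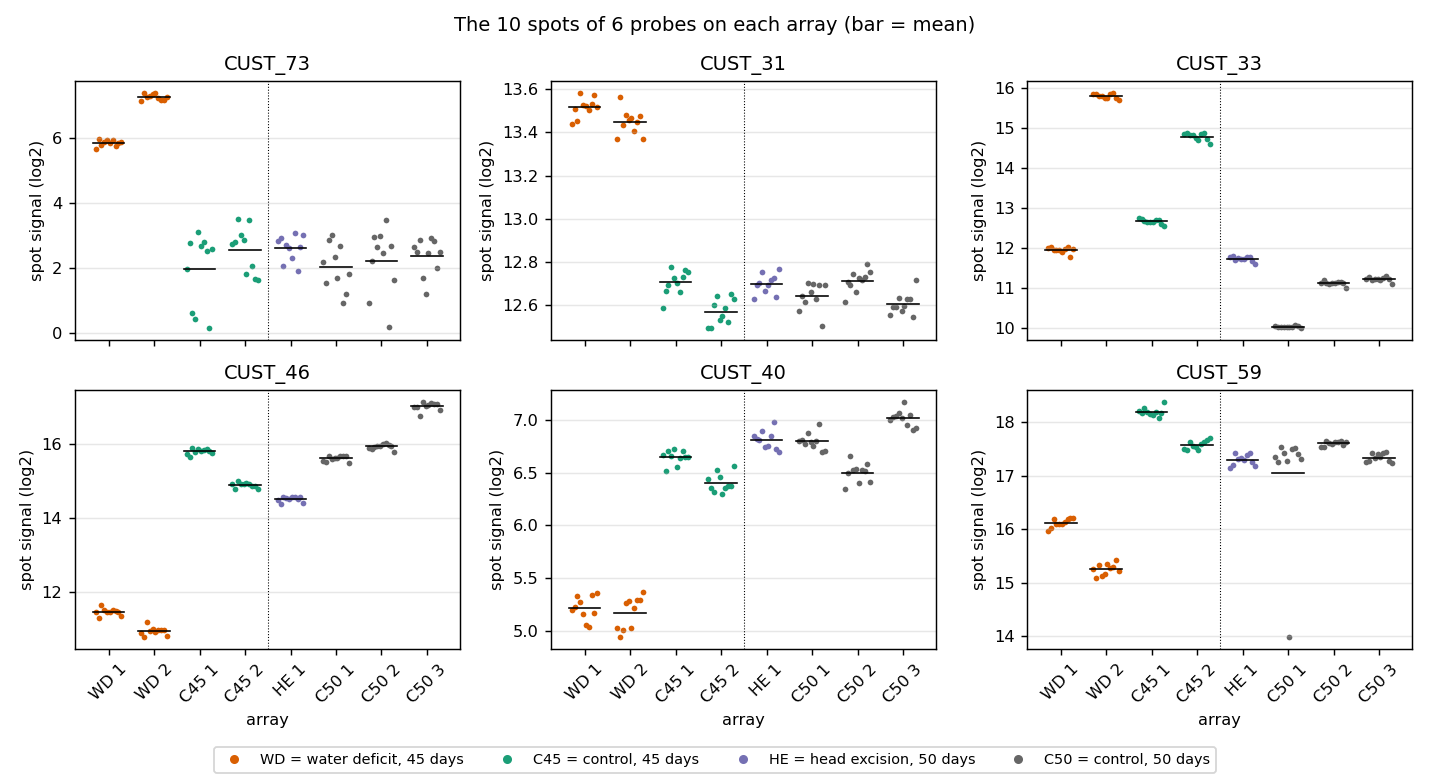
All 10 spots of 6 members on each of the 8 arrays, in log2 normalized signal (y axis), with the mean of each array as a bar and a dotted line between the slides. CUST_73, CUST_31, CUST_46 and CUST_40 separate water deficit from control leaves at every spot, CUST_33 shows water deficit and control values at 45 days that overlap, between replicates that lie 3.84 and 2.12 apart, and CUST_59 shows 1 stray spot at 13.99.

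At an unadjusted p of 0.01, 13 of 74 members passed (17.6%), against 9.94% of all probes, with 3 higher under water deficit, against 5.74%, and 10 lower, against 4.2%. Besides the 4 called members these were CUST_11, which was higher, and CUST_56, CUST_59, CUST_8, CUST_69, CUST_7, CUST_62, CUST_2 and CUST_52, which were lower. None of these 9 passed after adjustment. Of the scalings, centring on the spiked-in control RNAs changed the count most: 5 members passed, 2 higher and 3 lower, against 8.05% of all probes. Scaled to the 75th percentile, 3 were higher and 8 lower, against 9.58% of all probes. With cyclic loess 4 were higher and 7 lower, against 9.37%. Without the second water deficit array 6 members passed, 3 in each direction, against 5% of all probes.

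The nearest to the threshold was CUST_11, which read 12.57 and 12.52 under water deficit against 11.43 and 10.87 in controls at 45 days (1.39 ± 0.21, SE, adjusted p = 0.0503). CUST_59 had the largest fall among the uncalled, at 16.12 and 15.25 against 18.19 and 17.58 (-2.20 ± 0.38, SE, adjusted p = 0.0577). CUST_62 followed at 14.51 and 14.18 against 16.49 and 15.42, and CUST_2 at 14.26 and 13.84 against 15.94 and 15.68. In each of these the 2 water deficit samples lay on one side of both controls. CUST_69 read 3.95 and 3.44 against 5.37 and 4.84, but its difference of -1.41 ran from -1.41 to -0.23 over the 14 alternatives.

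Over the looser range, 23 members passed an unadjusted p of 0.05 (31.1%, against 23.7% of all probes), 7 higher (11.8% of all probes) and 16 lower (11.9%). The 10 that lay between the 2 limits differed by less than 1 in either direction, CUST_35, CUST_6, CUST_34 and CUST_41 being higher and CUST_47, CUST_9, CUST_65, CUST_55, CUST_36 and CUST_53 lower. Of the other 51 members 46 differed by less than 0.5, and the widest was the variable CUST_15 at -2.04 (limma, unadjusted p = 0.139). A difference over 1 in size was seen in 9 members (12.2%), against 14.8% of all probes. The 2 water deficit and 2 control values did not overlap for 48 members (64.9%), against 54% of all probes. Of these, 18 were higher (24.4% of all probes) and 30 lower (29.5%). The median difference was -0.04 over members and -0.02 over all probes.

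Taken one at a time, the 10 spots gave the water deficit difference the same sign in 56 of 74 members, 23 higher and 33 lower than controls at 45 days, while 18 had spots of both signs. Spots of both signs were seen in 38 of 74 members after head excision and in 29 between controls of the 2 ages. For replicate arrays of 1 group, which received the same treatment, 29 members in the water deficit pair and 47 in the control pair at 45 days also had all 10 spots on one side. A same sign at all 10 spots was thus also seen between samples of the same group.

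At 50 days the question was which members responded to head excision, measured on 1 array against 3, so that the spread of the head excision group was taken from the other groups. No member passed an adjusted p of 0.05 in limma, against 0.271% of all probes. At an unadjusted p of 0.01 1 member passed, against 2.61% of all probes, and at 0.05 5 passed (6.76%), against 8.76%. No other tool was run. CUST_18 had the smallest p. It read 8.33 in the head excision leaf, against 9.19, 9.10 and 9.33 in controls at 50 days, below all of them, a difference of -0.87 ± 0.18 (SE, unadjusted p = 0.0042, adjusted p = 0.282).

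Next came CUST_35 at 15.84 against 15.33, 14.92 and 14.47, CUST_2 at 14.11 against 14.81, 15.31 and 15.99, and CUST_39 at 16.94 against 17.26, 17.34 and 17.34. In each the head excision leaf lay outside its controls, and the fifth was CUST_46, described above. CUST_13 and CUST_42, the next of the members that were higher, differed by 0.53 each and had adjusted p-values of 0.671 and 0.691. The head excision leaf lay outside the range of its 3 controls for 38 members (51.4%), against 55.1% of all probes, with 18 above it (25.7%) and 20 below it (29.4%). The other 69 members had an unadjusted p over 0.05, and 61 of them differed by less than 0.5.

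Both treatments were set side by side, each against its own controls on its own slide, with no array in common. The differences went in the same direction in 36 of 74 members (48.6%), against 54.7% of all probes. Across members, which are not independent replicates, Pearson's r was 0.45 and Spearman's rho 0.03 (n = 74), and without CUST_46 r was 0.33. At an unadjusted p of 0.05 3 members passed under both treatments, CUST_2 and CUST_46 lower and CUST_35 higher in each. They made up 4.05% of members, against 3.22% of all probes that passed under both. In the same direction, as these 3 members went, it was 2.17% of all probes. With only 3 members, the difference between these shares was not tested.

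The difference between the 2 responses was itself tested. No member passed an adjusted p of 0.05 in limma, against 0.244% of all probes, while 7 passed an unadjusted p of 0.01 (9.46%, against 4.86%) and 18 an unadjusted p of 0.05 (24.3%, against 14.7%). The smallest p-values belonged to CUST_73, CUST_31 and CUST_11, which were higher under water deficit relative to head excision by 3.89 ± 0.75, 0.80 ± 0.16 and 1.50 ± 0.33 (SE), and to CUST_40, CUST_8 and CUST_7, which were lower by -1.38 ± 0.30, -0.76 ± 0.18 and -0.93 ± 0.22. Their adjusted p-values lay between 0.149 and 0.195. CUST_73 had no head excision or 50-day control array on which it was detected, so its value is no fold.

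**Figure D5:**
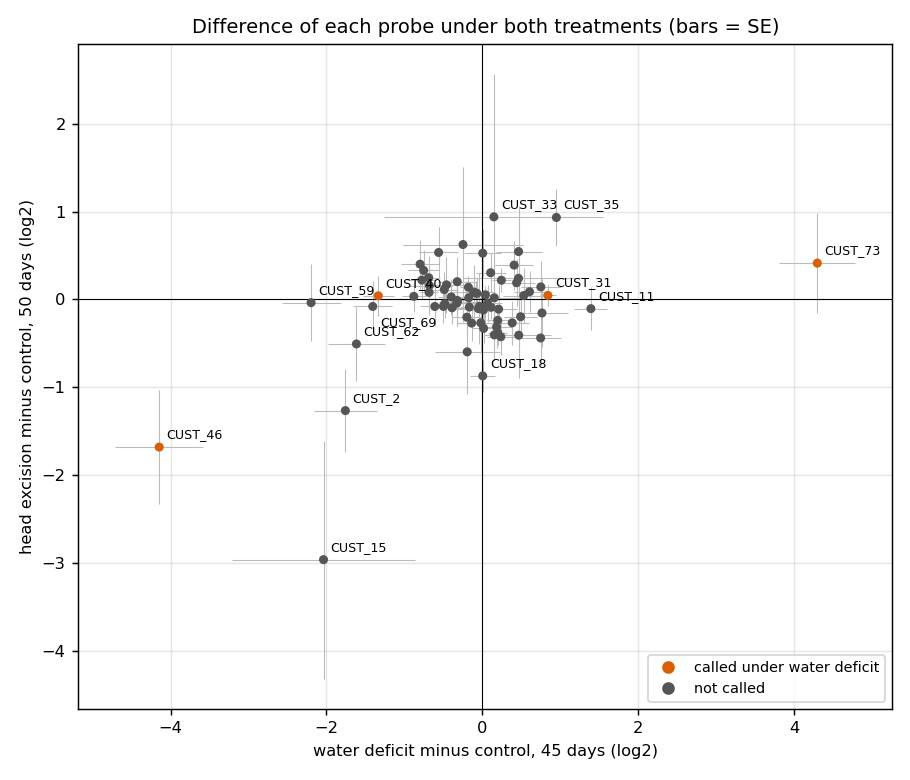
Log2 difference of each member under water deficit (x axis, 2 arrays against 2) and after head excision (y axis, 1 array against 3), each relative to its own controls, with bars of 1 SE. Most members crowd around 0, CUST_73 lies far to the right at 4.30, and CUST_46, CUST_2 and CUST_15 lie low in both.

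The controls of the 2 ages were compared as well, and since they share arrays with both treatments and lie on different slides, this comparison is a description of both at once. No member passed an adjusted p of 0.05 in limma, against 1.01% of all probes. At an unadjusted p of 0.01 8 members passed (10.8%, against 7.9%), 5 higher at 50 days (4.09% of all probes) and 3 lower (3.81%), and at 0.05 17 passed (23.0%, against 20.1%). CUST_18 read 9.19, 9.10 and 9.33 at 50 days against 10.09 and 10.44 at 45 days (-1.06 ± 0.14, SE, adjusted p = 0.0503), and CUST_35 read 15.33, 14.92 and 14.47 against 13.24 and 13.27 (1.65 ± 0.25, SE, adjusted p = 0.0596). Neither overlapped.

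CUST_70 was higher at 50 days by 0.79 and CUST_69 by 1.34, and CUST_38 was lower by -1.001 and CUST_66 by -0.65, with adjusted p-values of 0.0640 to 0.0945. The others at this level were CUST_8, higher by 0.45, and CUST_49, which was not detected in either group. The control groups did not overlap for 24 members (32.4%), against 39.4% of all probes. For CUST_18 the water deficit leaves, at 10.29 and 10.25, lay within the range of their controls.

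The members detected on some arrays only, apart from CUST_73, were dim throughout. CUST_22 read 2.45 and 2.67 in water deficit leaves against 2.77 and 2.63 in controls at 45 days, and 2.87 after head excision against 3.36, 2.91 and 3.16 in controls at 50 days, and was detected on the first control array at 50 days alone. CUST_20 ranged from 2.95 to 3.75 over the 8 arrays and CUST_64 from 3.06 to 3.68. None of these 3 passed an adjusted p of 0.05 in any of the 4 comparisons.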

How the data were processed

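Cyanine 3-labelled cRNA of 8 leaf samples was hybridized to 8 arrays and scanned by the study. Deposited scanner files held the processed signal of each spot as an intensity, background-subtracted by the authors with Agilent Feature Extraction (10.7.1.1 in the file headers, 9.1 in the submitters' processing notes). A second deposited table, with normalized log2 values of 40243 probes, served only as an alternative. Here, following the methods of the study, intensities were corrected with normexp (offset 1), log2-transformed and quantile-normalized over 8 arrays in limma 3.58.1 (R 4.3.3), and the 10 spots of a member were averaged. A mean per group was fitted to all 8 arrays, with moderated variances (4 residual and 1.34 prior degrees of freedom), and the Benjamini-Hochberg adjustment ran over 40243 non-control probes. The fit was tested on simulated data. Spread between spots was described without a test. Precision is limited by the number of arrays. A pairing of equal replicate numbers was checked and not assumed.

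Members named were those called, or the 3 higher and 3 lower with the smallest p where fewer than 3 were called, the 5 brightest and 5 dimmest, the 3 with the largest and smallest spot SD, and those detected on some arrays. Others are said to be chosen later or stand in a full list of those that passed a stated p. The members, lists and tests were chosen with earlier results of these data known. No marker list of leaf was used, since no member had a gene name. Alternatives covered background correction, scaling, filtering, deposited values, arrays fitted, spot summary, outlier spots and the replicate block.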

Additional observations from a re-analysis of the deposited data

How the results depend on the processing

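The 4 called differences kept their sign under all alternatives run and with any 1 array left out. The median water deficit difference over members, -0.04, was 0.03 when centred on spiked-in RNAs. The median spot SD of 0.0903 was 0.0838 with no normalization and no offset, 0.0692 with an offset of 50, 0.0801 as a median absolute deviation and 0.0791 over the members above background at every spot. The 4 members called under water deficit became 2 with an offset of 50 (2.85% of all probes), 2 with the deposited values (1.89%), 7 of the 67 members tested with only probes above background (4.79%), and 0 when only the 4 arrays at 45 days were fitted, where 0 of all probes passed. The fit then had fewer arrays. The filter for probes above background kept those above it on every array of at least 1 group. CUST_73 passed that filter through the water deficit arrays alone, so its call there is no support. CUST_46 was called in 12 of 14 alternatives, CUST_31 in 10, CUST_73 in 8, with that filter among them, and CUST_40 in 5. With 1 array left out in turn, 0 to 4 members were called: 1 without the first water deficit array (CUST_73), 1 without the second control at 45 days (CUST_62), 4 without the head excision array and 0 without any other single array. Without the second or the third control at 50 days, which belong to neither group, 6 and 5 of all 40243 probes passed, against 734 with all arrays. Without the head excision array 1.9% of all probes passed, and without the first control at 50 days 0.316%. Between controls of the 2 ages, the count of 0 became 1 with no background correction, against 1.18% of all probes. It became 2 with the median spot signal and an offset of 50 (1.09%) and 3 with only probes above background (2.39%). The count stayed 0 with any 1 control array at 50 days left out, against 0.169% to 0.435% of all probes. After head excision and for the difference between responses it stayed 0 in all alternatives that gave a value.

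With the replicate number as a block (replicate block), 0 members were called in each of the 4 comparisons, with 0 of all probes under water deficit, and the 4 water deficit calls had adjusted p-values of 0.0873 to 0.0988. The labels do not say that a number marks a plot. Between water deficit and control at 45 days, replicate differences correlated at r = 0.20 over all probes and 0.51 over members (0.27 without CUST_33), with only 2 pairs, so the block was not the main design. The median water deficit difference of all probes was -0.02 after quantile normalization, -0.16 scaled to the 75th percentile and 0.11 centred on spiked-in RNAs. After head excision it was -0.01 after quantile normalization, -0.05 scaled to the 75th percentile and 0.21 centred on spiked-in RNAs. Under water deficit, 2 members were called higher and 3 lower when scaled to the 75th percentile, against 2.42% of all probes. Centred on spiked-in RNAs, 1 was called higher and 2 lower, against 3.3%. An array left alone in its group was assumed to vary like the other groups. Fits of only 2 groups gave no value for the difference between responses, and leaving out the head excision array none for head excision. A difference in a member below background could not be measured at any number of spots.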

Other observations

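In the deposited table of log2 values, each member has 1 value per array, and this value followed a single spot. On each of the 8 arrays, the value of all 74 members lay within 0.01 of that of the spot with the lowest feature number after the normalization used here, whereas only 4 to 9 of 74 lay within 0.01 of the mean of 10 spots. The median distance was 0.000102 to 0.000147 from that spot and 0.0511 to 0.0777 from the mean. The deposited values of these members thus hold 1 of the 10 measurements. With them 2 members were called under water deficit, against 1.89% of all probes. With that spot alone 3 were called, against 1.82%.

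Of the non-control spots that the scanner software marked as outliers, most belonged to the 74 members on every array. In the water deficit samples these were 21 of 22 and 25 of 28, in controls at 45 days 27 of 27 and 33 of 33, after head excision 33 of 34, and in controls at 50 days 22 of 40, 22 of 26 and 29 of 54. Members held 740 of the 40909 non-control spots of an array, and the other 40169 non-control probes had no replicate spots. A mark set by comparing spots of the same probe could thus fall on members only. These counts therefore do not show that members were more prone to outliers, which was not tested. The 164 marked spots of the 64 members detected on every array lay a median of 0.17 from the median of their other 9 spots. The most marked spots of 80 were 15 in CUST_32 and in CUST_33, 13 in CUST_13 and 11 in CUST_54. The members with the largest mean spot SD among those above background at every spot had 9 (CUST_52), 4 (CUST_68) and 4 (CUST_47), and those with the smallest, CUST_35, CUST_37 and CUST_41, had 0.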
